A study of Homo sapiens with 93 samples.

Results

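H3K36me3, the trimethylation of lysine 36 on histone H3, was read over the genes of 10 transcription factors that set and hold B cell identity, in 93 human lymphoblastoid cell lines. The 10 genes, PAX5, EBF1, TCF3, IKZF1, IKZF3, SPIB, SPI1, POU2F2, POU2AF1 and BCL11A, were chosen by their Ensembl identifiers. All 10 identifiers were found among the 14000 features of the deposited count table, and all 10 passed the filter on low counts. Such lines are grown from B cells that Epstein-Barr virus has immortalised. Each line gave 1 CUT&Tag library, made by tethering a transposase to an antibody against the mark, from cells kept untreated in medium with 20% serum, frozen at 100000 cells per assay and amplified over 14 PCR cycles. The cultures were grown in 4 batches, and no label ties a line to a batch, so line, culture and library differences cannot be told apart. All lines form 1 group, and no comparison between conditions was made. In bulk libraries, fewer cells with the mark on a gene and less of it per cell cannot be told apart.

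The mark is placed on nucleosomes behind elongating RNA polymerase II, mainly by the methyltransferase SETD2, and so lies over the bodies of transcribed genes. B cell identity is built in steps. E proteins from TCF3 and the factor EBF1 open the programme, PAX5 commits cells to it and closes off other fates, and the ETS factors SPI1 and SPIB, the Ikaros family and the octamer factors work beside them.

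Library totals ran from 2842955 to 24325746 counts, with a median of 14883653. The median feature had between 114 and 1022 counts in a library. No identifier other than those of the 10 genes could be paired with a symbol (0 of 14000 matched the reference table), so the cell type label was not checked against B cell or other lineage markers. Counts were expressed as CPM, each count divided by the TMM-scaled library total and put on the usual common scale.

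The 250 bases before the RefSeq start (GRCh38.p14) are shown for the 5 genes that have a single listed start. They are shown because 4 of them (PAX5, TCF3, POU2F2 and SPIB) belong to the genes whose H3K36me3 moved together across lines. With library total and dynamic range (described below) removed, no correlation of EBF1 with those 4 passed the test. The windows are PAX5 at chr9:37034269-37034518, EBF1 at chr5:159097957-159098206, TCF3 at chr19:1652616-1652865 and POU2F2 at chr19:42132447-42132696, all on the minus strand, and SPIB at chr19:50418688-50418937 on the plus strand. The EBF1 and POU2F2 windows lie inside the wider RefSeq span of their genes. Capitals mark every match, on either strand, to GGAA (the core bound by ETS factors such as SPI1 and SPIB), CANNTG (the E-box bound by TCF3 proteins) or ATGCAAAT (the octamer bound by POU2F2), and overlapping matches run together.
PAX5: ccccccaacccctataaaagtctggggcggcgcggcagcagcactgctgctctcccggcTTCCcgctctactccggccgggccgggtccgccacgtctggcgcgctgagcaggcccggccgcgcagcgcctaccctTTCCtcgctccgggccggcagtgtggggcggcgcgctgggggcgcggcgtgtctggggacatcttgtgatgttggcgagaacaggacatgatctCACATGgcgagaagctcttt
EBF1: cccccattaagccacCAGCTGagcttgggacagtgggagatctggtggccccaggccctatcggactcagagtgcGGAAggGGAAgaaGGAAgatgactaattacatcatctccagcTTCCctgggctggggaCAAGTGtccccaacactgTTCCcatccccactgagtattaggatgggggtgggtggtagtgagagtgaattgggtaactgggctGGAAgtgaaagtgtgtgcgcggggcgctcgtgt
TCF3: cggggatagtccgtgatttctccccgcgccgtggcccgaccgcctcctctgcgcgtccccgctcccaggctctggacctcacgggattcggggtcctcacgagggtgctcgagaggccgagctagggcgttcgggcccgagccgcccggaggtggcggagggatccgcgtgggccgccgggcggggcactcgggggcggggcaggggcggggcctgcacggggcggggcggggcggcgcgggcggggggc
POU2F2: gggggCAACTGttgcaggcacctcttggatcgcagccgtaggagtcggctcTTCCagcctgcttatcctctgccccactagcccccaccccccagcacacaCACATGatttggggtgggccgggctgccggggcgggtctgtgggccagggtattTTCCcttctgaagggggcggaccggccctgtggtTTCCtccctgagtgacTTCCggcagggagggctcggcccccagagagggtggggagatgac
SPIB: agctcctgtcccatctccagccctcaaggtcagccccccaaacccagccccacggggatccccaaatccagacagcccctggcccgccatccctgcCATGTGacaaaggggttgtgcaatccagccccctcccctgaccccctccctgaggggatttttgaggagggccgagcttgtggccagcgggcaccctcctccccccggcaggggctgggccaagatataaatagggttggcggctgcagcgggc
EBF1 had 6 GGAA matches and 2 E-boxes, POU2F2 had 4 and 2, PAX5 had 2 and 1, SPIB had 0 and 1, and TCF3 had 0 of each. No window of these 5 genes held the octamer. Over 35116 RefSeq windows of the same length, 92.7% held GGAA, 61.8% an E-box and 1.63% the octamer, so the first 2 motifs are common. GC content ran from 57.2% in EBF1 to 79.6% in TCF3, against a median of 58% over the same windows. RefSeq's table also lists 3 starts for IKZF1 and 5 for BCL11A, none of which is printed. IKZF3, SPI1 and POU2AF1 had no entry in it.

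PAX5 carried the largest H3K36me3 count of the 10 genes and one of the largest in the table. PAX5, the paired-domain factor that keeps B cells committed (ENSG00000196092.14, chr9:36833269-37034268), had 706 CPM in its lowest line, a median of 1057 and 1461 in its highest. Its median rank among the 14000 features was 5, and over the 93 lines the rank ran from 1 to 31. EBF1, which acts with TCF3 at the entry to the lineage (ENSG00000164330.17, chr5:158695920-159099916), had 200 CPM at the lowest, 317 at the median and 600 at the highest. TCF3, which encodes the E proteins (ENSG00000071564.17, chr19:1609292-1652615), ran from 102 CPM through a median of 156 to 245. All 3 genes lay above the median feature of the library in 93 of 93 lines.

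The Ikaros family zinc finger genes were both high in the table but differed in spread. IKZF3, which encodes Aiolos (ENSG00000161405.17, chr17:39757715-39864312), ran from 191 CPM through a median of 314 to 501. IKZF1, which encodes Ikaros (ENSG00000185811.19, chr7:50303455-50405101), ran from 74.7 CPM through a median of 229 to 354, with 4 lines below 0.5 times the median. The lowest IKZF1 value rests on 851 counts, with a 95% Poisson interval of 69.7 to 79.9 CPM. This interval covers counting error only. It takes reads as independent, which amplified reads are not, so it may be too narrow. In the deposited scores, normal scores with the same sorted values in every library, IKZF1 reached -3.92, the lowest score in the table. That score was reached in 1 line, where IKZF1 had 1711 counts and 78 CPM.

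The 2 ETS genes had the lowest medians per feature, with BCL11A just above SPI1. SPI1, which encodes PU.1 (ENSG00000066336.12, chr11:47354860-47378547), ran from 32 CPM through a median of 85.7 to 118. SPIB, which encodes Spi-B (ENSG00000269404.7, chr19:50418938-50431314), ran from 17 CPM through 38.8 to 70.7, the lowest of the 10 genes. SPIB was the one gene with a median below the median feature, 42.1 CPM, and lay above the median feature of its library in 30 of 93 lines.

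POU2F2, which encodes the octamer-binding factor OCT2 (ENSG00000028277.21, chr19:42086110-42197936), was steady at a high level, with 176 CPM at the lowest, 260 at the median and 358 at the highest. POU2AF1, its coactivator in B cells (ENSG00000110777.12, chr11:111352255-111379275), ran from 96 CPM through 134 to 353, and 11 lines lay above 2 times the median. BCL11A, a zinc finger repressor needed for lymphoid development (ENSG00000119866.22, chr2:60450520-60553924), had the widest range, from 27.9 CPM through 87.3 to 218. Its highest line was 7.81 times its lowest, against 2.03 times for POU2F2 and 2.07 times for PAX5. For BCL11A, 6 lines lay below 0.5 times the median and 5 above 2 times the median.

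**Figure D1:**
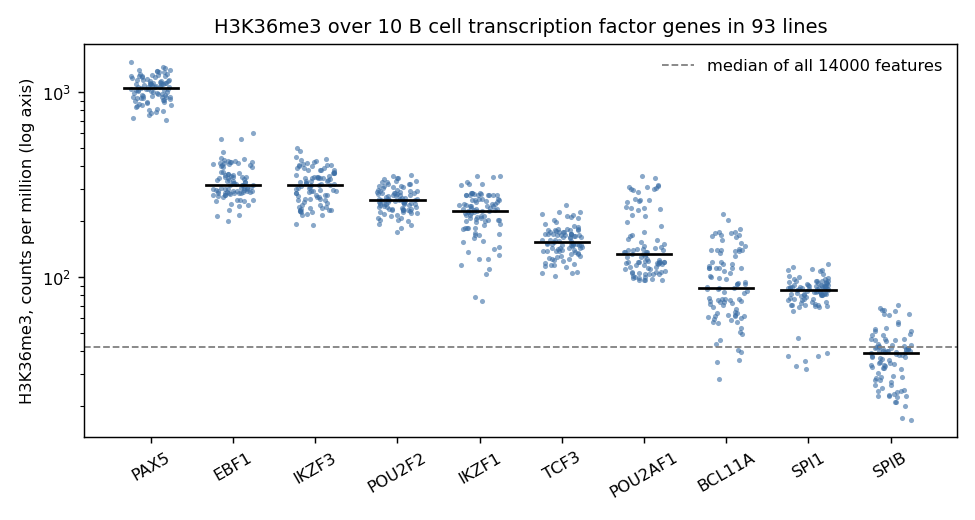
H3K36me3 in CPM (log axis) over the 10 genes, ordered by median. Each point is 1 of the 93 lines, black bars are medians over lines, and the dashed line is the median of all 14000 features (42.1 CPM). PAX5 stands above every other gene and SPIB straddles the dashed line, while BCL11A shows the widest range.

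The level of the median feature differed along the table. In blocks of rows set after the values had been seen, the median feature had 54.5 CPM in the rows after 9600, which hold PAX5, EBF1 and IKZF1, and 60.2 CPM in the rows after 7800 up to 8500, which hold BCL11A. It had 29.2 CPM in the rows after 3200 up to 7700, which hold TCF3, IKZF3, POU2F2 and SPIB, and 36.6 CPM in the rows after 1900 up to 3200, which hold SPI1 and POU2AF1. Relative to the median of its own block in each library, PAX5 was still highest, at a median of 4.27 log2 units above it. IKZF3 followed at 3.44 and POU2F2 at 3.14, and both then stood above EBF1 at 2.55. TCF3 stood at 2.41, IKZF1 at 2.05, POU2AF1 at 1.86 and SPI1 at 1.22. BCL11A (0.53) and SPIB (0.38) were closest to their blocks, and lay above the block median in 75 and 70 of 93 lines. The part of these blocks in the differences between genes was not tested.

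Per kilobase the order changed. The sources used here do not give the counted interval, so the RefSeq gene span was used as the length, from 12.4 kb for SPIB to 404 kb for EBF1. PAX5 (201 kb) had a median of 5.26 CPM per kb over lines, and POU2AF1 (27 kb) had 4.95. SPI1 had 3.62, TCF3 had 3.60, SPIB had 3.14 and IKZF3 had 2.94. POU2F2 had 2.33 and IKZF1 had 2.26, and the lowest were BCL11A at 0.844 and EBF1 at 0.784. EBF1, next after PAX5 per feature, was last per kilobase, and SPIB, last per feature, was in the middle. Of the 9 neighbouring pairs in this order, 3 differed by more than the spread of their difference between lines. POU2AF1 exceeded SPI1 by 0.71 ± 0.51 log2 units (SD, n = 93) and in 89 lines. IKZF3 exceeded POU2F2 by 0.32 ± 0.30 and in 79 lines. IKZF1 exceeded BCL11A by 1.30 ± 0.72 and in 89 lines. The other 6 neighbouring pairs did not differ beyond their spread, among them PAX5 and POU2AF1. There PAX5 was higher in 53 of 93 lines but the mean difference was -0.10 ± 0.48 log2 units (SD). SPI1 and TCF3 did not differ beyond their spread either, and SPI1 was higher in 39 lines.

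**Figure D2:**
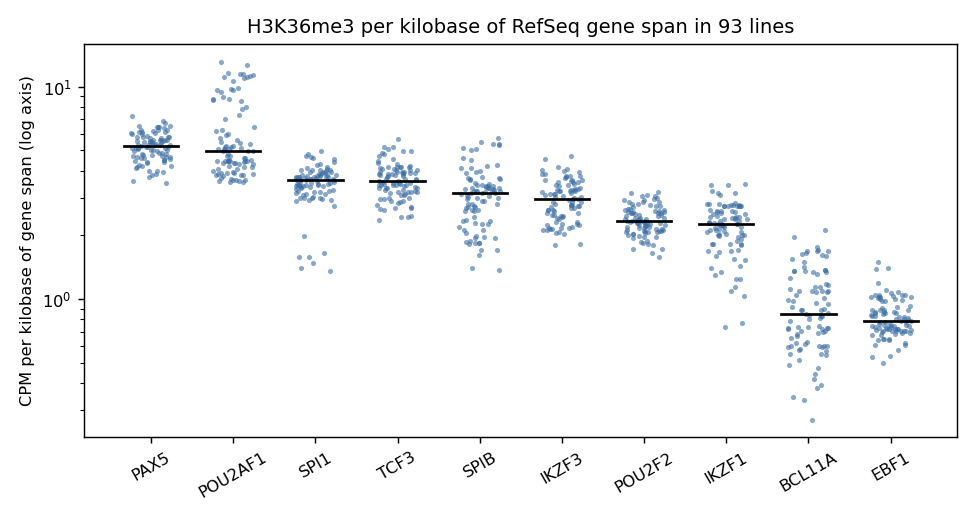
H3K36me3 in CPM per kilobase of RefSeq gene span (log axis) over the 10 genes, ordered by median. Each point is 1 of the 93 lines and black bars are medians. PAX5 and POU2AF1 overlap at the top, and BCL11A and EBF1 have the lowest medians, with points that overlap those of IKZF1.

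Of the 10 genes, 6 varied more between lines than features of their abundance usually did. The test set each feature against edgeR's dispersion trend with library total and dynamic range as covariates, and adjusted p over 13915 features. The dynamic range is the log2 CPM gap in a library between the medians of the most and the least abundant quintile of features. In this test 18.6% of all features passed. BCL11A had a residual deviance 2.81 log2 units above the trend (adjusted p = 9.9e-80, edgeR goodness of fit), which put it above 99.5% of features. POU2AF1 lay 2.18 above (adjusted p = 2.12e-40), IKZF1 1.67 above (adjusted p = 6.19e-21) and SPIB 1.59 above (adjusted p = 1.09e-18). EBF1 (0.68, adjusted p = 0.00193) and SPI1 (0.59, adjusted p = 0.00849) passed by less. PAX5 (-0.46), POU2F2 (-0.37), TCF3 (-0.11) and IKZF3 (-0.05) did not pass, with adjusted p = 1 in each.

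The coefficient of variation between lines was 43.2% for BCL11A, 43.6% for POU2AF1, 31.9% for SPIB and 26.1% for IKZF1. It was lowest in PAX5 (15.4%) and POU2F2 (15.4%), against a median of 20.5% over features. BCL11A also passed as a DESeq2 dispersion outlier, which 1.74% of features did, and the other 9 genes did not. EBF1 did not pass without covariates (adjusted p = 0.832) or in the 47 deeper libraries (adjusted p = 0.0505, edgeR goodness of fit), and SPIB did not with 10 principal components removed (adjusted p = 0.437). SPI1 did not pass without covariates (adjusted p = 0.151), with 10 components removed (adjusted p = 0.202), without the 10 shallowest libraries (adjusted p = 0.233) or in the 47 deeper ones (adjusted p = 1, edgeR goodness of fit). BCL11A, IKZF1 and POU2AF1 passed edgeR's test under each of the alternatives run.

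**Figure D3:**
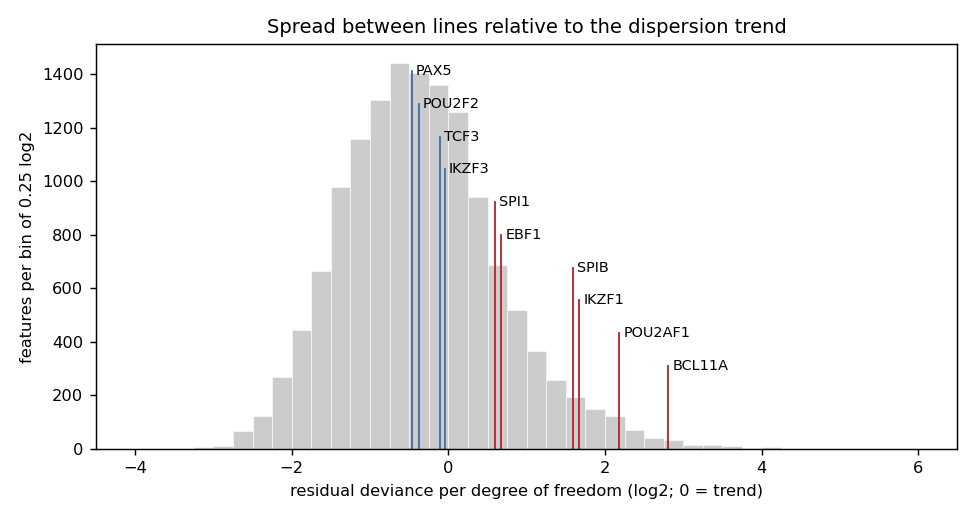
Residual deviance per degree of freedom relative to the dispersion trend (log2, 0 = trend) for 13915 features, as grey bars of 0.25 log2 units. Red lines are the 6 genes that passed the goodness-of-fit test and blue lines the 4 that did not. BCL11A lies in the far right tail at 2.81, and PAX5 lies to the left of 0 at -0.46.

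For SPI1 and POU2AF1 the spread moved with a feature of the table. In the rows after 1900 up to 3200, a drop of shared size, 0.641 log2 units, was fitted in each library. The fit used log2 CPM with library total and dynamic range removed, centred for each feature, so the drop is relative to the other libraries. The differences between CPM medians given below have neither measure removed and are not on the same scale as 0.641. The fitted row differed between libraries, although some share one. Whether each library has such a drop, and how sure its row is, was not tested. The last row before the drop ran from 2017 to 3047, with a median of 2668. These positions were found from the other rows of the stretch, without the 2 genes. SPI1 stands at row 2319 and POU2AF1 at row 2750. In this stretch 47.1% of 1290 features varied more than the trend, against 15.7% of the 12625 others.

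SPI1 fell into separate ranges by side of the drop. In the 86 lines whose drop came at or after row 2319, SPI1 had 65.2 CPM at the lowest, 86.3 at the median and 118 at the highest. In the 7 lines whose drop came before it, SPI1 had 32 CPM at the lowest, 37.2 at the median and 46.9 at the highest. The ranges did not overlap, and the medians differed by 1.21 log2 units. The median of the 20 flanking rows differed between the same lines by 0.84 log2 units. Within each side the coefficient of variation of SPI1 was 12.8% and 13.3%, against 20.4% over all lines. With the side of the drop as a further covariate, SPI1 lay 1.03 log2 units below the trend, at -1.03 (adjusted p = 1, edgeR goodness of fit). The 7 lines with the earlier drop also held the lowest values of PAX5 (706 CPM), TCF3 (102), IKZF3 (191) and SPIB (17), which stand outside the stretch. EBF1, IKZF1, POU2F2, POU2AF1 and BCL11A had their lowest lines elsewhere. Libraries with the lowest SPI1, PAX5, TCF3, IKZF3 and SPIB held 3871084 to 7987154 counts, below the median of 14883653. Whether the drop goes with depth was not tested.

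POU2AF1 kept part of its spread. In the 20 lines whose drop came at or after row 2750, POU2AF1 had 199 CPM at the lowest, 277 at the median and 353 at the highest. In the 73 lines whose drop came before it, POU2AF1 had 96 CPM at the lowest, 121 at the median and 306.5 at the highest. These ranges overlapped, since 4 of the 73 lines exceeded the lowest of the 20. The medians differed by 1.20 log2 units, against 0.71 for the 20 flanking rows. With the side of the drop as a covariate POU2AF1 still passed the variability test, at 0.68 log2 units above the trend (adjusted p = 0.00238, edgeR goodness of fit), and the share of all features that passed was 15.6%.

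**Figure D4:**
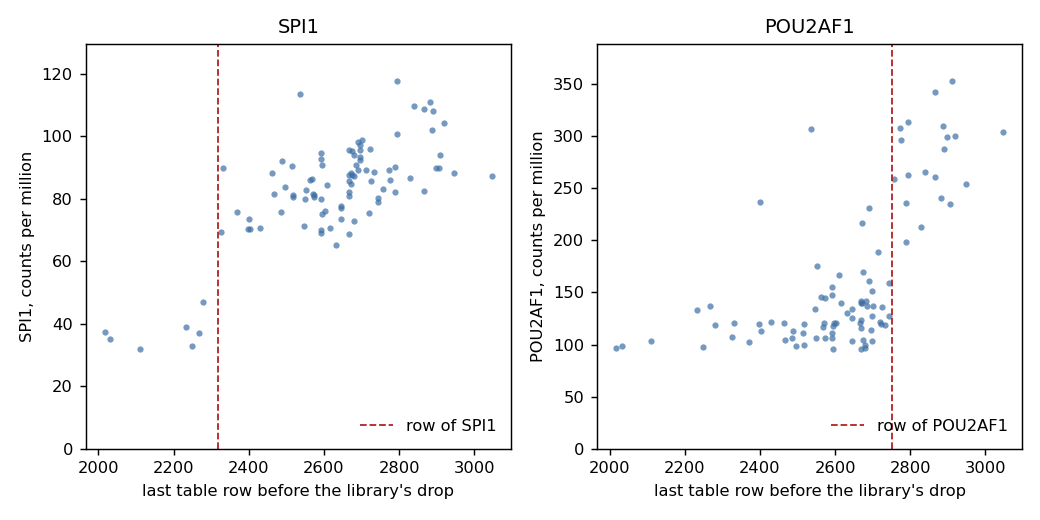
H3K36me3 of SPI1 (left) and POU2AF1 (right) in CPM against the last table row before each library's drop, 1 point for each of 93 lines. The dashed line is the gene's own row. The 7 lines left of it in SPI1 have 32 to 46.9 CPM, and the 20 lines right of it in POU2AF1 have 199 to 353 CPM.

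Library measures moved with most of the genes, as they did with most features: 65% of features changed with depth and 80% with dynamic range, against 7 of the 10 genes for each. CPM was higher in deeper libraries for 6 of the 10 (29.2% of features were), with log2 changes per log2 unit of total from 0.09 for PAX5 to 0.31 for POU2AF1 (adjusted p = 0.00345 and 5.24e-05, edgeR quasi-likelihood). EBF1 was the 1 gene lower in deeper libraries (-0.11, adjusted p = 0.0166; 35.8% of features were lower). CPM was higher in libraries of wider dynamic range for 7 genes and lower for 0 (44.5% of features were higher and 35.5% lower), from 0.46 log2 per unit in POU2F2 (adjusted p = 0.00161) to 1.91 in POU2AF1 (adjusted p = 1.37e-07). IKZF3 changed by 1.15 per unit (adjusted p = 2.23e-10) and SPIB by 1.08 (adjusted p = 0.000393). EBF1, IKZF1 and BCL11A did not pass, at -0.08 (adjusted p = 0.726), 0.39 (adjusted p = 0.199) and -0.32 (adjusted p = 0.515). Without the 10 shallowest libraries SPIB did not pass for depth (adjusted p = 0.0945) and SPI1 did not for dynamic range (adjusted p = 0.063, edgeR quasi-likelihood), which left 5 and 6 genes higher. The dynamic range is made from the same counts, so these values describe the libraries. By its definition it rises with the level of abundant features. The medians of PAX5, EBF1, IKZF3, POU2F2, IKZF1, TCF3 and POU2AF1 lay above 85.6% (POU2AF1) to 99.98% (PAX5) of features. For these genes the share over all features is therefore not a like reference. Among them EBF1 and IKZF1 did not pass for dynamic range, while SPIB and SPI1, above 47.45% and 73.1% of features, did. The part of abundance in these changes was not tested.

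With total and dynamic range removed, 7 of the 10 genes rose and fell together across lines, and few pairs with EBF1, IKZF1 or BCL11A passed. All 45 pairs of genes were compared. Permutation p-values were adjusted together over the pairs of all 10 genes with every other tested feature. The positive correlations that passed numbered 22, and 21 of these were the pairs among PAX5, TCF3, IKZF3, SPIB, SPI1, POU2F2 and POU2AF1. In those 21 pairs r ran from 0.306 to 0.641 and rho from 0.259 to 0.675 (highest adjusted p = 0.0101 and 0.0356, permutation tests, n = 93). Without the 2 lines farthest from the median of 1 gene of the pair, r ran from 0.297 to 0.610. That gene was the one named first in the opening list, so extreme lines of the other gene could stay in. The same holds for each r given without 2 lines. Within depth classes all 21 values of r were above 0, and 19 passed in the 46 shallower libraries (r from 0.303 to 0.704) and 10 in the 47 deeper ones (r from 0.139 to 0.651). With the drop removed from the rows that hold SPI1 and POU2AF1, 20 of the 21 passed (r from 0.190 to 0.621). Only pairs with SPI1 or POU2AF1 could change in r here. Whether the other pairs move with the position of the drop was not tested. The 7 genes were grouped after their values had been seen, and their grouping gets no test of its own. They are the same 7 genes that were higher in libraries of wider dynamic range, and EBF1, IKZF1 and BCL11A are those that did not pass there. A linear fit on total and dynamic range was removed, and whether other dependence on them remained was not tested.

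Many other features moved with these 7 genes too. The shares below are over features of all levels, and no set of like abundance was compared. For PAX5, 6 of the 9 other genes had a positive correlation that passed, and so did 27.6% of 13914 features. For TCF3 the 6 of 9 stood beside 28% of features, for IKZF3 beside 30.4%, for SPIB beside 29.8%, for SPI1 beside 29.1% and for POU2F2 beside 24.8%. For POU2AF1 the count was 7 of 9, beside 23.7%. The 3 other genes moved with few features. For EBF1 the count was 1 of 9 and the share 6.32%. BCL11A and IKZF1 passed with 0 of 9 in this direction, where 8.24% and 2.47% of features passed. Among their positive values of r the lowest unadjusted p was 0.0318 for BCL11A (with PAX5, r = 0.221) and 0.0566 for IKZF1 (with BCL11A, r = 0.198, permutation tests). By rank, IKZF1 and BCL11A had rho = 0.237 (p = 0.0226, adjusted p = 0.0595, permutation test).

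TCF3 and POU2AF1 had the highest r of the 45 pairs over all 93 lines, though not the highest rho, with r = 0.641 and rho = 0.597 (p = 1e-05 for both, the lowest value possible with this number of permutations, adjusted p = 8.38e-05 and 9.63e-05) and r = 0.589 without 2 lines. The correlation was 0.616 in the 46 shallower libraries (adjusted p = 0.000307) and 0.651 in the 47 deeper ones (adjusted p = 0.00146, permutation tests). With the drop removed from the rows that hold POU2AF1 it was 0.583 (adjusted p = 0.000103, permutation test), and 4 other pairs then had a higher r. It stood past the threshold under all 13 alternatives, with r from 0.445 to 0.722 and adjusted p from 4.72e-05 to 0.0126 (permutation tests). No other pair that passed in all 93 lines did so, and 11 of 13 was the next highest count. PAX5 and IKZF3 had r = 0.621 and rho = 0.579 (p = 1e-05 each; adjusted p = 8.38e-05 and 9.63e-05, permutation tests), with r = 0.588 without 2 lines, 0.603 in the shallower libraries and 0.597 in the deeper ones. SPIB and POU2F2 had r = 0.617 and rho = 0.675 (p = 1e-05 each; adjusted p = 8.38e-05 and 9.63e-05), with r = 0.61 without 2 lines. Their r was 0.67 in the shallower libraries (adjusted p = 0.00046) and 0.387 in the deeper ones, where it did not pass (adjusted p = 0.0562, permutation tests).

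IKZF1 and POU2F2 were the 1 pair with a negative correlation that passed, with r = -0.285 (p = 0.00578, adjusted p = 0.018) and rho = -0.307 (p = 0.00299, adjusted p = 0.0108, permutation tests), and r = -0.309 without 2 lines. Negative correlations passed for 1.93% of features with IKZF1 and 25.6% with POU2F2, so each had 1 of 9. The 8 other genes had 0 of 9 in the negative direction. The share of features was 22.8% for PAX5, 22.7% for TCF3, 26.3% for IKZF3, 26.5% for SPIB, 19.1% for SPI1 and 24.3% for POU2AF1. It was 6.96% for EBF1 and 5.28% for BCL11A. The value was -0.273 in the shallower libraries (adjusted p = 0.172) and -0.349 in the deeper ones (adjusted p = 0.0951, permutation tests), so it passed in neither class alone. EBF1 and POU2AF1 had r = 0.251 (p = 0.0159, adjusted p = 0.042) and rho = 0.192 (p = 0.0658, adjusted p = 0.139, permutation tests), and r = 0.184 without 2 lines. This pair passed in 4 of 13 alternatives, with adjusted p from 0.0143 to 0.719 (permutation tests). It did not pass in either depth class or with the drop removed.

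Few pairs of the 7 genes passed once shared axes of the table were removed. With 5 principal components of log2 CPM removed in place of total and dynamic range, 1 of the 21 pairs passed, and with 10 removed 1 passed. Both times the pair was TCF3 and POU2AF1, with r = 0.445 (adjusted p = 0.00518) and r = 0.452 (adjusted p = 0.0126, permutation tests). The share of all features that passed in the positive direction was also lower. With 5 components it was 2.36% for PAX5, 1.51% for TCF3, 0.647% for IKZF3, 2.3% for SPIB, 1.59% for SPI1, 1.07% for POU2F2 and 1.32% for POU2AF1. With 10 it was 0.201% for PAX5, 0.194% for TCF3, 0.18% for IKZF3, 0.446% for SPIB, 0.41% for SPI1, 0.302% for POU2F2 and 0.776% for POU2AF1. The first 5 components held 88.3% of the variance of IKZF3 and from 59.2% (PAX5) to 72.8% (TCF3) in the other 6, against a median of 57% over features. They held 37.4% of the variance of EBF1, 32.7% of BCL11A and 8.62% of IKZF1, and 1.03% of features had a smaller share than IKZF1. IKZF1 and POU2F2 kept a negative correlation with 5 components removed (r = -0.392, adjusted p = 0.018, with 0.848% of features negative for IKZF1 and 1.83% for POU2F2) but did not pass with 10 (r = -0.278, adjusted p = 0.212, permutation tests). With 10 removed the 1 negative pair that passed was EBF1 and SPIB (r = -0.41, adjusted p = 0.0213, permutation test), where 0.216% of features passed for EBF1 and 0.208% for SPIB. This pair had r = -0.0284 (adjusted p = 0.86, permutation test) with total and dynamic range removed.

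**Figure D5:**
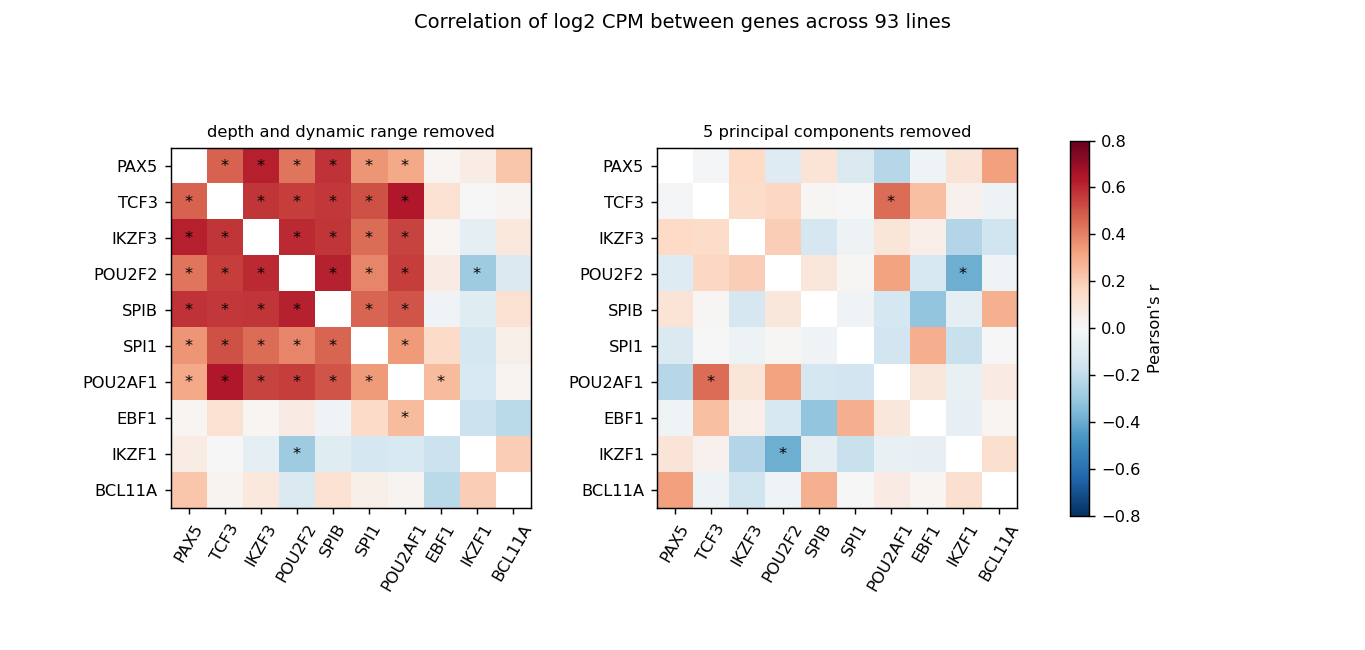
Pearson's r of log2 CPM between the 10 genes across 93 lines, with library total and dynamic range removed (left) or 5 principal components removed (right). Colour gives r on a scale from blue (negative) to red (positive), and stars mark pairs that passed at an adjusted permutation p under 0.05. The 7 genes from PAX5 to POU2AF1 form a red block on the left, where 21 pairs passed, and on the right 1 of these pairs is starred.

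Rows next to a gene in the table followed it to different degrees. The mean r of the rows within 10 was 0.623 for SPI1 and 0.57 for POU2AF1, the 2 genes in the stretch with the drop. It was 0.268 for TCF3, 0.2 for SPIB, 0.203 for POU2F2, 0.183 for IKZF3, 0.177 for BCL11A and 0.143 for PAX5, and close to 0 for IKZF1 (0.0576) and EBF1 (-0.0157). For PAX5 the row after it had r = 0.724 and the row before it 0.561, so its 2 direct neighbours moved with it more than the wider rows. For EBF1 the row before had r = -0.223 and the row after 0.278. The sources used here do not say whether neighbouring rows share reads.

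Among features at least 20 rows away, those most alike were found at r = 0.852 and 0.844 for IKZF3 and at 0.833 and 0.819 for SPIB. For SPI1 (0.778 and 0.745) and POU2AF1 (0.779 and 0.76) both lay within 31 rows and thus in the same stretch. For TCF3 the values were 0.781 and 0.771, for POU2F2 0.772 and 0.769, and for PAX5 0.742 and 0.727. They were lower for BCL11A (0.631 and 0.629), EBF1 (0.576 and 0.563) and IKZF1 (0.457 and 0.456). For each gene these are the highest of all the features compared and are given with no test. The files do not pair their identifiers with symbols.

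The deposited scores ordered the lines much as CPM did. Spearman's rho between score and CPM across lines, given as a description, was 0.926 for POU2AF1 and between 0.973 and 0.989 for the 9 other genes. With the scores in place of log2 CPM, 19 of the 21 pairs among the 7 genes passed, with r from 0.243 to 0.600.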

How the data were processed

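H3K36me3 was read by CUT&Tag in 93 lymphoblastoid cell lines, 1 library each. The deposited count table holds raw whole-number counts per feature for 14000 features, and the deposited score table holds normal scores of the same features. Per the submitters' processing notes, HISAT2 2.2.1, bedtools and the hg38 build were used, with no role or order given. The sources used here give neither the counted interval nor read filters, and they do not state the order of rows on the genome. The rows of the 10 genes were grouped by chromosome. Within chromosomes 11 and 19 they followed rising position, so neighbouring rows may be neighbours on the genome.

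Counts were scaled with TMM in edgeR 4.0.16 (factors 0.916 to 1.05) and expressed as log2 CPM with a prior count of 2. A feature was tested when 47 or more libraries held 10 or more of its counts (13915 features), and p-values were adjusted over them by Benjamini-Hochberg at 0.05. For the correlations the adjustment ran together over the pairs of all 10 genes with every other tested feature. Library total and dynamic range were covariates. Variability was tested with edgeR's deviance goodness of fit, covariates with its quasi-likelihood test, and correlations of residual log2 CPM with 100000 two-sided permutations. P-values rest on 1 library for each line, so they do not separate line, culture and library differences. The alternatives used size factors and dispersion outliers from DESeq2 1.42.0, no filter, no covariates, 5 or 10 principal components, subsets by depth, thinning, another prior count, the deposited scores and flanking rows. Scripts ran in R 4.3.3 and Python 3.11.15 and were tested on simulated data.

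The 10 genes and all lists were chosen with earlier results of these data known. Beyond the 10 genes, the rule for naming took the 2 features most alike to each, at least 20 rows away, and the adjacent rows. The 8 lists with 87 symbols, cell type markers included, were not used, since 0 identifiers matched the reference table. RefSeq (GRCh38.p14) gave gene spans and promoter windows.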

Additional observations from a re-analysis of the deposited data

How the results depend on the processing

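No paired analysis was possible because all libraries form 1 group. The number of the 10 genes that varied more than the trend fell to 1 as DESeq2 dispersion outliers and was 4 to 6 under the edgeR alternatives. The count of positive pairs was 1 with 5 principal components removed, 1 with 10, and 10 in the 47 deeper libraries, against 22. The count of negative pairs was 2 without covariates and 2 after thinning, and 0 in the 46 shallower libraries, 0 in the 47 deeper ones and 0 relative to flanking rows, against 1. The added pair, without covariates and after thinning, was EBF1 and BCL11A, and the 1 pair with 10 components was EBF1 and SPIB in place of IKZF1 and POU2F2. The subsets hold fewer lines, and the 46 shallower libraries kept 19 positive pairs. The cause of these changes was not tested for any setting. SPI1 turned below the trend in the 47 deeper libraries (-0.188) and with the drop as a covariate (-1.03). With 5 components removed r turned negative for PAX5 with TCF3 (-0.0085), SPI1 (-0.114), POU2F2 (-0.104) and POU2AF1 (-0.227), for TCF3 with SPI1 (-0.003), for IKZF3 with SPIB (-0.136) and SPI1 (-0.0428), for SPIB with SPI1 (-0.03) and POU2AF1 (-0.141), and for SPI1 with POU2AF1 (-0.153). With 10 it did so for PAX5 with SPI1 (-0.104), TCF3 with SPI1 (-0.0636), IKZF3 with SPIB (-0.0926) and SPI1 (-0.0303), and SPIB with POU2AF1 (-0.1998). None of these reversed values passed. The 3 alternatives on the drop were chosen after seeing the data. Intervals cover counting error only, and the smallest library holds 2842955 counts.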
